A study of Homo sapiens with 10 samples.

Results

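The 9 genes UPF1, UPF2, UPF3A, UPF3B, SMG1, SMG5, SMG6, SMG8 and SMG9 code for factors of nonsense-mediated mRNA decay (NMD). They were chosen by name, through the Ensembl identifier of each gene in the count tables. Earlier results of these data were known when they and the other lists below were chosen. All 9 passed the filter on low counts that kept 16143 of the 32705 genes with at least 1 count. The cells were U2OS, a line established from a human osteosarcoma, and were sequenced 48 h after they received control siRNA (siCtrl, 5 libraries) or an siRNA pool against the DEAD-box helicase gene DDX41 (siDDX41, 5 libraries). Both groups came from the same cell line without other treatment, and polyadenylated RNA was sequenced from each. The comparison asks which transcripts of the NMD machinery were higher or lower when DDX41 was depleted. Nothing in the labels says that the replicates were separate cultures, so the p-values measure the spread between these libraries, which may be technical.

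NMD degrades mRNAs on which translation ends too early, and it also sets the level of many normal transcripts. The helicase UPF1 binds terminating ribosomes with the release factors, is joined by UPF2 and UPF3 proteins, often through an exon junction complex (EJC) left downstream of the stop codon, and is phosphorylated by the kinase SMG1. Phosphorylated UPF1 then recruits the endonuclease SMG6 and the adaptor SMG5, and several mRNAs of NMD factors are themselves targets of the pathway.

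Library totals lay between 23393764 and 24598860 counts in siCtrl and between 21807041 and 24896398 in siDDX41. DDX41 was at 49.1, 49.4, 47.4, 47.2 and 50.5 CPM (counts per 1000000 of the scaled library) in siCtrl replicates 1 to 5 and at 11.5, 13.7, 12.4, 11.2 and 12.4 CPM in siDDX41 replicates 1 to 5. The groups were far apart, with 25.1% of the control level remaining. The log2 fold change was -1.99 (SE 0.049, edgeR adjusted p = 4.47e-24). Of 8 osteoblast markers, 4 passed the filter. COL1A1, the chain of collagen I that leads the list, was at 1875 ± 100.3 CPM in siCtrl and 1766 ± 94.6 CPM in siDDX41 (SD, n = 5), whereas COL1A2, SP7, IBSP and BGLAP were at or near 0. COL1A1 was not called (log2 fold change -0.086, edgeR adjusted p = 0.0551). The other 3 were called and their groups did not overlap, the transcription factor gene RUNX2 (-0.40, edgeR adjusted p = 2.24e-09) and the phosphatase gene ALPL (-0.70, edgeR adjusted p = 5.51e-06) lower and the matrix protein gene SPP1 (0.66, edgeR adjusted p = 6.88e-07) higher. The summed level of the osteoblast markers, nearly all of it COL1A1, was 1808 to 2043 CPM in siCtrl libraries and 1727 to 1952 CPM in siDDX41 libraries. Markers of other cell types (6 genes) summed to 36.8 to 41.9 CPM in siCtrl and 13.6 to 15.9 CPM in siDDX41. CD34, the most abundant of them in siCtrl, fell from 30.4 ± 1.49 to 4.66 ± 0.90 CPM (log2 fold change -2.71, SE 0.080, edgeR adjusted p = 5.27e-20). Without CD34 these markers summed to 8.73 to 10.0 CPM in siCtrl and 8.81 to 10.8 CPM in siDDX41. Most of this was the epithelial gene EPCAM, at 7.99 ± 0.447 CPM in siCtrl and 8.31 ± 0.742 CPM in siDDX41 (not called). CDH1, also epithelial, was at a mean of 0.874 CPM in siCtrl and 0.928 CPM in siDDX41. CD3E was listed at 0 in every library, and PTPRC and PECAM1 stayed under 1 CPM.

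Several library properties moved with the groups. Mitochondrial transcripts took 1.14% to 1.69% of counts in siCtrl and 2.00% to 2.29% in siDDX41. Very long transcripts also varied between libraries. For the 523 tested genes of at least 5 mean CPM whose canonical transcript has 10 kb or more, the median log2 ratio to the mean of the 10 libraries was -0.0745, -0.0929, 0.0343, -0.00187 and -0.0759 in siCtrl replicates 1 to 5 and 0.0589, 0.0739, 0.0628, -4.14e-05 and 0.0406 in siDDX41 replicates 1 to 5. Replicates 3 and 4 stood above the other siCtrl libraries, and replicate 4 was the lowest of siDDX41. At an adjusted p under 0.01, 230 of these 523 genes were called higher and 140 lower (30.3% and 32.1% of all tested genes). Their median log2 fold change was 0.088 (-0.001 over all tested genes). Over transcripts of any length (11246 genes) the siDDX41 libraries did not stand higher, since the slope of the log2 ratio per doubling of length was -0.0132 to 0.0382 in siCtrl, highest in replicate 3, and -0.0199 to 0.00687 in siDDX41. The part of these properties in the results was not tested beyond a correction for transcript length and fits without siCtrl replicates 3 and 4, whose values are given where they changed the call of an NMD factor.

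Of the 9 NMD genes, SMG5 was higher after DDX41 knockdown, and SMG6, SMG9 and UPF3B were lower, at an adjusted p under 0.01. Over all 16143 tested genes, 30.3% were called higher and 32.1% lower (62.4% in either direction), so 4 of 9 is not above the general share. In 3 of the 9 genes (SMG5, SMG6 and SMG9) the CPM values of the groups did not overlap, beside 26.7% (higher) and 29.3% (lower) of all tested genes, 55.9% in either direction. The median log2 fold change was -0.041 over the 9 genes and -0.001 over all tested genes, and the median absolute change of all called genes was 0.412. In the main fit, each NMD factor moved by less than that. In other fits SMG5 (0.426 with a GC correction), SMG6 (-0.413 without siDDX41 replicate 2) and SMG1 (0.526 without siCtrl replicates 3 and 4) moved by more than 0.412. That value comes from the main fit, and such a median was not taken in the other fits. SMG6, SMG1, SMG5 and SMG9 changed by more than 64.26%, 59.05%, 56.17% and 52.43% of all tested genes. That share was 47.88% for UPF3B and 3.735% to 11.44% for the other factors. In bulk RNA, fewer cells with a transcript and less of it per cell cannot be told apart.

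**Figure D1:**
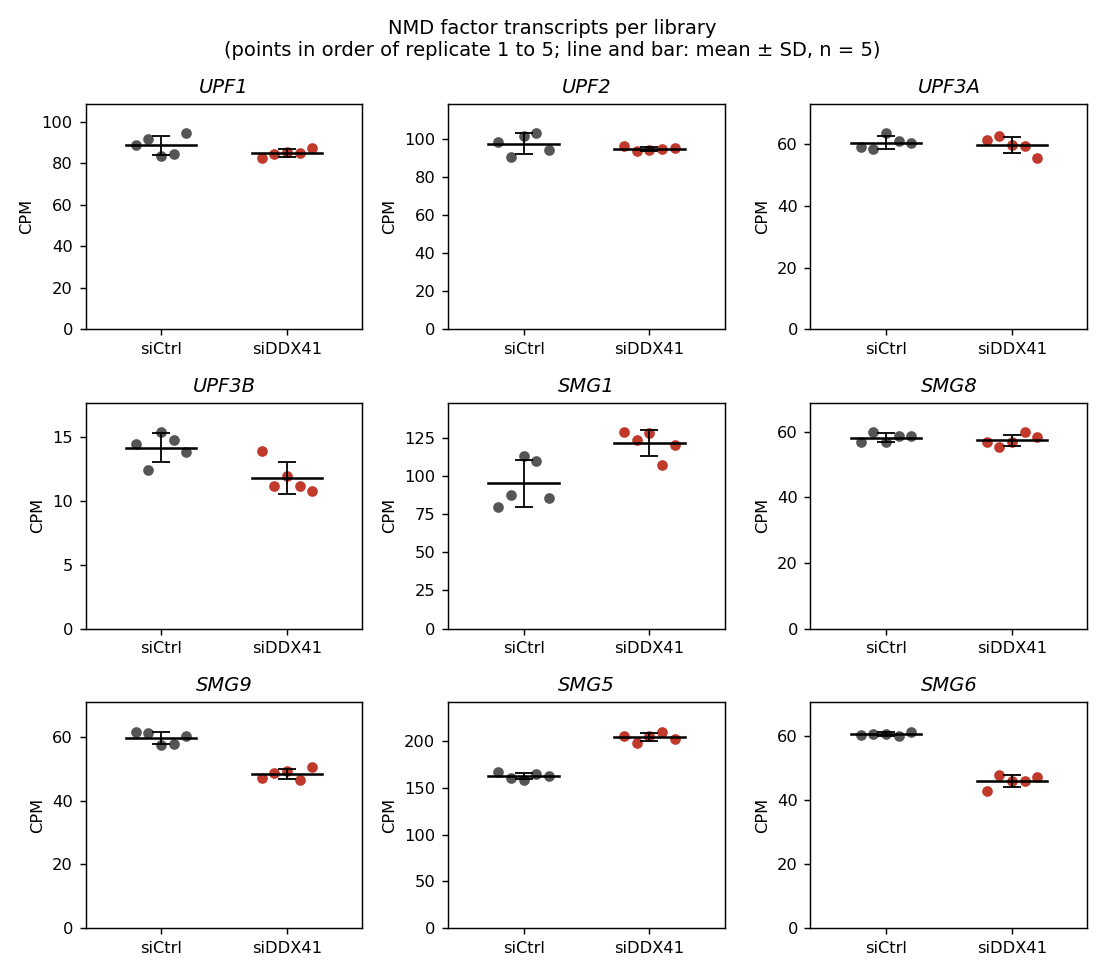
CPM of the 9 NMD genes in each library, with siCtrl in grey and siDDX41 in red (points in the order of replicates 1 to 5, horizontal line and bar for mean ± SD, n = 5, each axis from 0). SMG5 lies higher and SMG6 and SMG9 lie lower in all 5 siDDX41 libraries than in any siCtrl library, while the groups overlap in the other genes.

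Levels of different genes were compared per kb of the canonical transcript. In siCtrl, SMG5 stood highest at 35.7 ± 0.769 CPM per kb, ahead of UPF3A at 25.5 ± 0.847 CPM per kb (SD, n = 5). UPF2 (18.9 ± 1.02), SMG8 (18.1 ± 0.404) and UPF1 (16.7 ± 0.875 CPM per kb) followed, and neighbours among these 3 overlapped. SMG9 (10.9 ± 0.357) lay slightly above SMG6 (10.2 ± 0.0826 CPM per kb). UPF3B (6.04 ± 0.478) and SMG1 (5.93 ± 0.949 CPM per kb) were lowest and did not differ beyond their spread. In siDDX41 the ends of this order were SMG5 at 44.8 ± 0.975 and UPF3B at 5.02 ± 0.539 CPM per kb, and SMG6 (7.68 ± 0.318) and SMG1 (7.57 ± 0.542 CPM per kb) overlapped.

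Promoters are shown for the 4 genes that passed the threshold, SMG6, SMG9 and UPF3B lower and SMG5 higher. SMG1, with a log2 fold change of 0.35, did not pass it and is left out here. RefSeq promoter windows (GRCh38.p14, 250 bases before to 50 bases after the start) matched 8 of the 9 genes, and where a gene had several windows the nearest to its GENCODE start was taken (35 bases away for UPF3B and at the same base for the others). Capitals mark matches, on either strand, to the GC box (GGGCGG), the CCAAT box (CCAAT), the TATA box (TATAAA), an ETS core (CCGGAAG), an NRF1 core (CGCATGCG), a CRE (TGACGTCA) and a YY1 core (AAGATGGCG). None of these letter strings contains another, but neighbouring matches can overlap. All windows below lie on the minus strand and are written 5′ to 3′ along the gene, at chr17:2303736-2304035 for SMG6, chr19:43754913-43755212 for SMG9, chrX:119852914-119853213 for UPF3B and chr1:156282776-156283075 for SMG5.
SMG6: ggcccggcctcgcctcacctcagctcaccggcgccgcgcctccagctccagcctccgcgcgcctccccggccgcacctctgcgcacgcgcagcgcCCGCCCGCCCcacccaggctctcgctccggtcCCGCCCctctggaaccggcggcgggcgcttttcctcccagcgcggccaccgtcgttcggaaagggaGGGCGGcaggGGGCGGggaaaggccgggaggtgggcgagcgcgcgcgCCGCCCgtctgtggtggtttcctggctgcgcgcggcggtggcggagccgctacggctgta
SMG9: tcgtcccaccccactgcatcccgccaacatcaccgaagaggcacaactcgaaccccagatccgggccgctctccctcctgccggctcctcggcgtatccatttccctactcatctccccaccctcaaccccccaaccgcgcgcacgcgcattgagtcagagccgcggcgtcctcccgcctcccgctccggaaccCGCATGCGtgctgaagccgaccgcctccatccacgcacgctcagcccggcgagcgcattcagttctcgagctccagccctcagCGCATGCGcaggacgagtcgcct
UPF3B: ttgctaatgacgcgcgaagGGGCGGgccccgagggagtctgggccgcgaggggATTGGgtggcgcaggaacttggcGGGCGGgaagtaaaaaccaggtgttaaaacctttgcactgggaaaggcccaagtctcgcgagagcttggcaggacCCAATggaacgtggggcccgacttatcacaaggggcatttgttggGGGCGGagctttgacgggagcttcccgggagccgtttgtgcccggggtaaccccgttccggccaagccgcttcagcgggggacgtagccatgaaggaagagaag
SMG5: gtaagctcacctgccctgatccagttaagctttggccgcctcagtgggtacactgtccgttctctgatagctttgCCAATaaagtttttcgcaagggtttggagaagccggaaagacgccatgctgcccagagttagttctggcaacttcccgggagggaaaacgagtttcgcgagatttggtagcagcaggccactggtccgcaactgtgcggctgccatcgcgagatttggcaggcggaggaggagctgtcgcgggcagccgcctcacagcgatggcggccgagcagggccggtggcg
The SMG6 window held 6 GC boxes and no other motif searched, and the UPF3B window held 3 GC boxes and 2 CCAAT boxes. The SMG9 window held the NRF1 core at 2 places and the SMG5 window the CCAAT box once, both without a GC box. GC boxes occurred in 6 of the 8 NMD windows and in 44.6% of 27305 RefSeq promoters (1 window a gene), and CCAAT boxes in 4 of 8 and 35.7%. The ETS core was found in the UPF3A window alone among the 8 and in 10.7% of all promoters, and the NRF1 core in 1 of 8 and in 598 of all 27305 promoters. TATAAA (12.0% of all promoters), the CRE (1.98%) and the YY1 core (1.85%) had no match in the 8 windows. GC content was 78.3% for SMG6, 67.7% for SMG9, 62.7% for UPF3B and 59.7% for SMG5, beside a median of 58.3% over all windows. A match describes the letters only.

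UPF1, the helicase at the centre of the pathway, ranged from 83.8 to 94.6 CPM in siCtrl and from 82.5 to 87.6 CPM in siDDX41. The groups overlapped, and the log2 fold change was -0.061 (SE 0.034, 95% interval -0.128 to 0.006, edgeR adjusted p = 0.114). The direction was not stable, with 0.030 after a GC correction (adjusted p = 0.355), -0.012 after a correction for transcript length (adjusted p = 0.759) and -0.11 without siCtrl replicates 3 and 4 (adjusted p = 0.00584). UPF2, the bridge between UPF1 and the UPF3 proteins, spanned 90.3 to 102.9 CPM in siCtrl and 93.6 to 96.3 CPM in siDDX41, with a log2 fold change of -0.041 (SE 0.033, 95% interval -0.107 to 0.025, edgeR adjusted p = 0.276). All siDDX41 values of UPF2 lay within the range of siCtrl. Its log2 fold change was -0.0836 after a GC correction (adjusted p = 0.011) and -0.0679 without siCtrl replicate 2 (adjusted p = 0.0618). After a correction for transcript length it was 0.0104 (adjusted p = 0.78).

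UPF3A and UPF3B are paralogs that link UPF2 to the EJC. UPF3B (ENSG00000125351.11, chrX:119834022-119852998) was at 14.4, 12.4, 15.4, 14.8 and 13.8 CPM in siCtrl replicates 1 to 5 and at 13.9, 11.1, 11.9, 11.1 and 10.8 CPM in siDDX41 replicates 1 to 5. The siDDX41 replicate 1 lay within the range of siCtrl and the other 4 siDDX41 libraries lay below it. UPF3B had the fewest counts of the 9 genes, 253 to 365 per library. It fell by 0.27 on the log2 scale (SE 0.069, edgeR adjusted p = 0.00111). Without siCtrl replicates 3 and 4, its adjusted p was 0.0179 at a log2 fold change of -0.21. UPF3A lay between 58.4 and 63.5 CPM in siCtrl and between 55.4 and 62.6 CPM in siDDX41, and its log2 fold change was -0.019 (SE 0.037, 95% interval -0.091 to 0.053, edgeR adjusted p = 0.653). UPF3A pseudogenes had 8 counts or fewer in any library.

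The ratio of UPF3B to UPF3A within each library was 0.245, 0.212, 0.242, 0.242 and 0.230 in siCtrl replicates 1 to 5 and 0.226, 0.178, 0.200, 0.188 and 0.195 in siDDX41 replicates 1 to 5. It was lower in 4 of 5 siDDX41 libraries than in any siCtrl library. The log2 ratio differed by -0.25 between the groups (exact two-sided permutation p = 0.0159, adjusted p = 0.0238 over the 3 partner ratios). Without siCtrl replicates 3 and 4 the log2 ratio differed by -0.22, but 3 against 5 libraries cannot give a p below 0.0357 before adjustment, so this fit is not read as a test.

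SMG1 (ENSG00000157106.16, chr16:18804860-18926408), the kinase that phosphorylates UPF1, was at 79.8, 87.6, 113.4, 109.7 and 85.7 CPM in siCtrl replicates 1 to 5 and at 128.6, 123.5, 128.2, 107.2 and 120.6 CPM in siDDX41 replicates 1 to 5. The siCtrl replicates 3 and 4 reached the level of siDDX41 replicate 4, so that the groups overlapped, and these are the libraries that stood apart for very long transcripts. SMG1 has a canonical transcript of 16062 bases. Its log2 fold change of 0.35 had a wide error (SE 0.11, 95% interval 0.139 to 0.568) and did not pass the threshold (edgeR adjusted p = 0.0173). It passed in several other fits, at an adjusted p of 0.00594 without siCtrl replicate 3 (log2 fold change 0.42), 5.77e-08 without siCtrl replicates 3 and 4 (0.53), 0.00778 after a correction for transcript length (0.25), 0.00269 with DESeq2 (0.36) and 8.05e-05 with limma-voom (0.37). SMG1 stayed uncalled in 15 of 21 alternatives, among them the replicate block (adjusted p = 0.0502). Over all alternatives the adjusted p ranged from 5.77e-08 to 0.0519. The length correction and the fit without siCtrl replicates 3 and 4 were chosen after seeing the data. Replicates 3 and 4 are the siCtrl libraries with the most SMG1, so leaving out either or both widens the difference by construction.

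The 3 genes whose log2 CPM followed SMG1 most closely over the 10 libraries, among 11278 tested genes of at least 5 mean CPM, were PRKDC (Pearson r = 0.982), UTP20 (r = 0.979) and NF1 (r = 0.977). PRKDC codes for the catalytic subunit of the DNA-dependent protein kinase, a relative of SMG1, UTP20 acts in ribosome biogenesis, and NF1 codes for the RAS regulator neurofibromin. Their canonical transcripts of 13459, 9031 and 12373 bases are also long. All 3 passed the threshold (edgeR adjusted p = 0.00595, 0.00248 and 0.00755), whereas SMG1 did not. For UPF1 the closest were LIPE (r = 0.964), PPP4C (r = 0.937) and NIBAN2 (r = 0.922), none of which passed the threshold. These correlations describe 10 libraries in 2 groups and were not tested.

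SMG1 has partial copies on chromosome 16. Its pseudogenes summed to 4.26% to 6.04% of SMG1 counts in each library, so reads placed on them make up a small part. SMG1P7 (log2 fold change 0.50, SE 0.13, edgeR adjusted p = 0.00150) and SMG1P3 (0.57, SE 0.17, edgeR adjusted p = 0.00441) were called higher, each with 69 counts or fewer per library, and SMG1P3 shares exons on the same strand with NPIPB3, which had 115% of its counts. SMG1P3 lost its call with DESeq2 (adjusted p = 0.0157) and without siCtrl replicate 2 (0.0186) or 5 (0.0167) or siDDX41 replicate 2 (0.0175) or 4 (0.012), and SMG1P7 without siCtrl replicates 3 and 4 (0.0163). SMG1P4, SMG1P6, UPF3AP1, UPF3AP2 and UPF3AP3 had under 10 counts in every library and were not measured. How reads shared with these copies were counted was not stated, which leaves SMG1 and its copies uncertain to that extent.

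**Figure D2:**
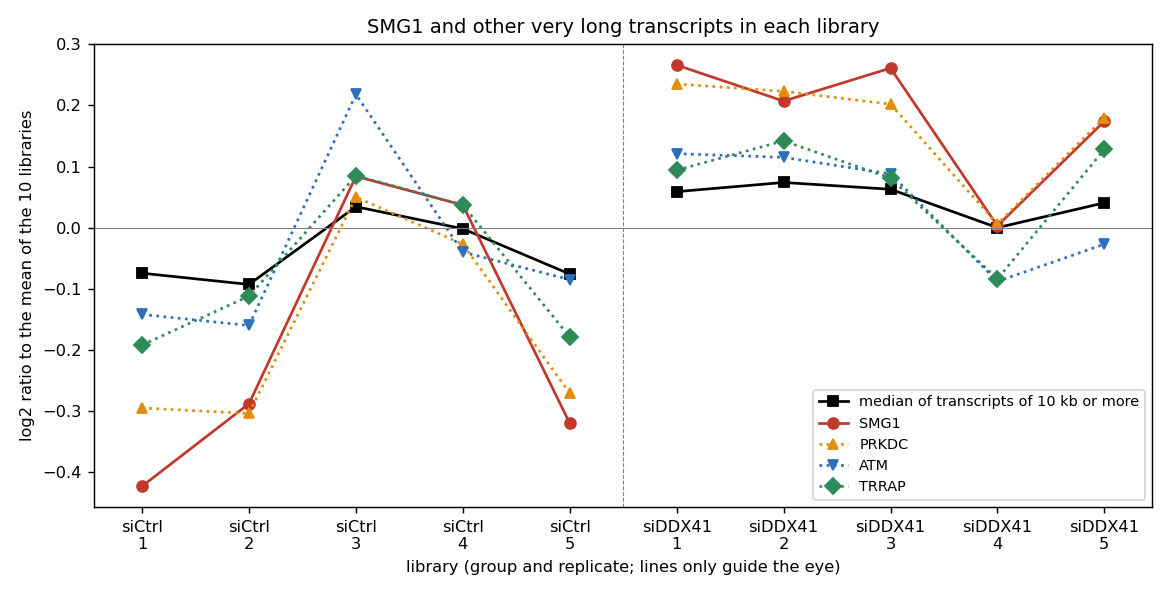
Log2 ratio of CPM in each library to the mean of the 10 libraries for SMG1, its relatives PRKDC, ATM and TRRAP, and the median of transcripts of 10 kb or more (lines within a group only guide the eye). In siCtrl replicates 3 and 4 the SMG1 ratio was 0.084 and 0.037, against -0.423 to -0.288 in the other siCtrl libraries, and siDDX41 replicate 4 stood at 0.003.

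SMG8 and SMG9 form a complex with SMG1 and restrain its kinase activity. SMG9 (ENSG00000105771.13, chr19:43727983-43754962) was at 61.7, 61.1, 57.5, 57.8 and 60.4 CPM in siCtrl replicates 1 to 5 and at 47.3, 48.6, 49.4, 46.6 and 50.6 CPM in siDDX41 replicates 1 to 5. Every siDDX41 library lay below every siCtrl library. The log2 fold change was -0.30 (SE 0.036, edgeR adjusted p = 1.3e-08). SMG8 ranged from 56.8 to 59.8 CPM in siCtrl and from 55.3 to 59.8 CPM in siDDX41, with a log2 fold change of -0.021 (SE 0.034, 95% interval -0.087 to 0.045, edgeR adjusted p = 0.591).

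Within a library, the ratio of SMG9 to SMG1 was 0.774, 0.698, 0.507, 0.527 and 0.705 in siCtrl replicates 1 to 5 and 0.367, 0.394, 0.385, 0.434 and 0.419 in siDDX41 replicates 1 to 5. The groups did not overlap, although siCtrl replicates 3 and 4 came close. The log2 ratio differed by -0.66 (exact two-sided permutation p = 0.00794, the smallest 5 against 5 can give, adjusted p = 0.0238). For SMG8 to SMG1 the log2 ratio differed by -0.39 (exact two-sided permutation p = 0.0317, adjusted p = 0.0317), and siDDX41 replicate 4 overlapped with siCtrl. This adjusted p became 0.0635 when siCtrl replicate 1 (-0.33), 2 (-0.35) or 5 (-0.35) or siDDX41 replicate 1 (-0.36), 2 (-0.37) or 3 (-0.36) was left out. Without siCtrl replicates 3 and 4 the log2 ratio differed by -0.86 for SMG9 and -0.55 for SMG8, also not read as a test. None of the partner ratios passed the threshold of 0.01 used for genes, and they were read at an adjusted p under 0.05. Both ratios contain SMG1 and move with the very long transcripts above, and SMG8 itself was not called.

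**Figure D3:**
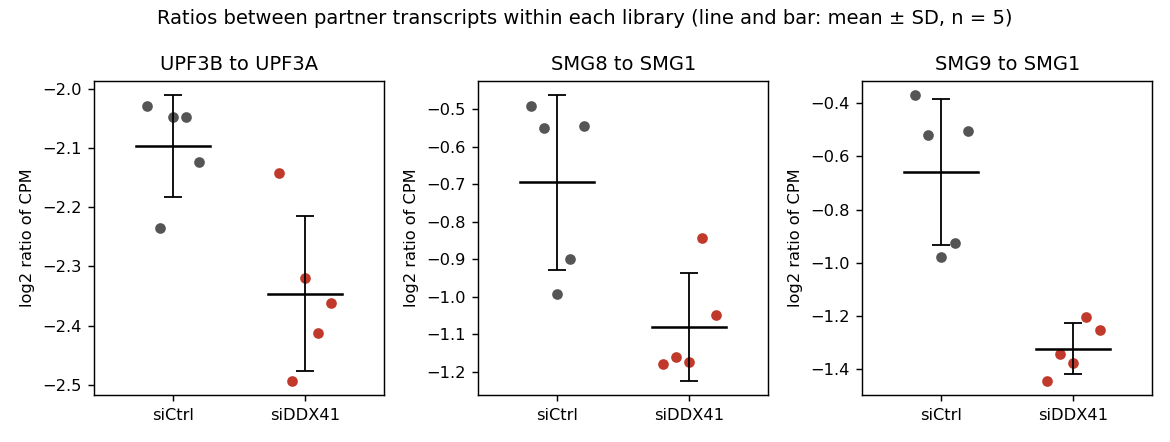
Log2 ratio of CPM between partner transcripts in each library, siCtrl in grey and siDDX41 in red (line and bar for mean ± SD, n = 5; axes differ and do not start at 0). The ratio of SMG9 to SMG1 was -0.66 ± 0.27 in siCtrl and -1.32 ± 0.096 in siDDX41, and that of UPF3B to UPF3A was -2.10 ± 0.085 and -2.35 ± 0.13.

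SMG5 (ENSG00000198952.8, chr1:156249224-156282825), an adaptor that binds phosphorylated UPF1, was at 167.0, 160.8, 157.9, 164.6 and 163.2 CPM in siCtrl replicates 1 to 5 and at 205.0, 198.1, 205.7, 210.2 and 202.5 CPM in siDDX41 replicates 1 to 5. Every siDDX41 library exceeded every siCtrl library by more than the spread within either group. Its log2 fold change was 0.33 (SE 0.027, edgeR adjusted p = 6.43e-12).

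SMG6 (ENSG00000070366.13, chr17:2059839-2303785), the endonuclease that cuts the target mRNA near the stop codon, was at 60.3, 60.8, 60.5, 60.1 and 61.4 CPM in siCtrl replicates 1 to 5 and at 42.8, 47.7, 45.8, 45.8 and 47.2 CPM in siDDX41 replicates 1 to 5. The siCtrl libraries were tightly grouped and all 5 siDDX41 libraries lay below them. SMG6 had the most negative log2 fold change of the 9 genes, -0.40 (SE 0.035, edgeR adjusted p = 2.32e-11). HIC1, on the opposite strand, shares 2419 of its exon bases but had only 0.158% of its counts.

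The genes differed in features outside the choice of members. The 3′ untranslated region of the canonical transcript had 4709 bases in SMG1 and 3613 in SMG9, between 1276 and 1713 in UPF2, SMG5, SMG6 and UPF1, and 228 in SMG8. UPF3A had 900 and UPF3B 856. GENCODE 44 annotates transcripts of the NMD class for 2 of 17 UPF1 transcripts and for 1 each in SMG1, SMG8 and SMG9, and gene counts do not separate such transcripts from coding ones. Among the called genes, SMG9 combined a long 3′ untranslated region with a fall, while SMG5, SMG6 and UPF3B had shorter ones and moved in both directions. SMG1, with the longest of these regions, had a positive log2 fold change (0.35) and was not called.

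Among 9 other genes of NMD and translation termination, 8 were tested, 5 were higher and 1 was lower. Over all tested genes, 30.3% were higher and 32.1% lower. Whether this list or those below differed from these shares was not tested. The median log2 fold change of the 8 genes was 0.167 (-0.001 over all tested genes). Of 3 release factor genes, 1 was lower, 1 was higher and 1 was not called. ETF1, which codes for eRF1 that reads the stop codon, fell from 146.3 ± 3.24 to 94.5 ± 3.32 CPM (SD, n = 5; log2 fold change -0.63, SE 0.030, edgeR adjusted p = 2.18e-17). GSPT1, which codes for its GTPase partner eRF3a, rose by 0.35 on the log2 scale (SE 0.032, edgeR adjusted p = 4.92e-11), and its paralog GSPT2, for eRF3b, had a log2 fold change of 0.016 (edgeR adjusted p = 0.702). NBAS (log2 fold change 0.30), an NMD factor at the endoplasmic reticulum, PNRC2 (0.23), which couples UPF1 to decapping, and the cap-binding subunit gene NCBP2 (0.22) were also higher. NCBP1 was called higher at 0.0955 (edgeR adjusted p = 0.00905). Its call was lost with limma-voom (adjusted p = 0.0116), a replicate block (0.0182) and a GC correction (0.0401, adjusted p = 0.237). Several fits without a single library lost it too. CTIF, a cap-binding partner, was listed at 0 in all 10 libraries and was not measured.

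The EJC marks exon junctions for NMD. Of its 5 core genes, 2 were higher and 2 lower (30.3% and 32.1% of all tested genes), with a median log2 fold change of -0.045. CASC3, a core subunit gene, was at 172.3, 166.7, 174.2, 174.2 and 169.3 CPM in siCtrl replicates 1 to 5 and at 95.8, 103.2, 97.7, 98.0 and 97.4 CPM in siDDX41 replicates 1 to 5. The groups were far apart, and its log2 fold change of -0.80 (SE 0.029, edgeR adjusted p = 2.59e-20) was larger than that of any NMD factor. RBM8A, which codes for Y14, was lower (-0.25, SE 0.030, edgeR adjusted p = 1.01e-08). The RNA clamp gene EIF4A3 was higher (0.15, SE 0.029, edgeR adjusted p = 3.53e-05). Of the paralogous partners of Y14, MAGOHB was higher (0.29, SE 0.041, edgeR adjusted p = 3.22e-07) and MAGOH had a log2 fold change of -0.045 (edgeR adjusted p = 0.287).

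Of 6 EJC-associated genes, 4 were higher and 2 lower, beside 30.3% and 32.1% of all tested genes (median log2 fold change 0.136). RNPS1, an activator of splicing and NMD, was at 143.3, 153.7, 140.7, 145.3 and 148.5 CPM in siCtrl replicates 1 to 5 and at 89.5, 93.5, 91.7, 87.8 and 96.0 CPM in siDDX41 replicates 1 to 5. Its groups did not overlap (log2 fold change -0.67, SE 0.032, edgeR adjusted p = 1.36e-17). ACIN1, with which RNPS1 and SAP18 form the ASAP complex, was also lower (-0.17, and -0.10 with a GC correction), SAP18 was higher (0.19), and PNN, which takes the place of ACIN1 in the related PSAP complex, rose by 0.54 (edgeR adjusted p = 2.41e-16). CWC22, a splicing factor that loads EIF4A3, and PYM1, which takes the EJC apart, were called higher at 0.13 and 0.15 (0.071 and 0.24 with a GC correction). CWC22 lost its call without siCtrl replicate 2 (adjusted p = 0.029) or 5 (0.0184) or siDDX41 replicate 1 (0.0203) or 3 (0.0101), and with a GC correction (0.0746). PYM1 lost its call without siCtrl replicate 1 (adjusted p = 0.0124), 2 (0.02) or 5 (0.0138) or siDDX41 replicate 1 (0.0178), with DESeq2 (0.0109), without a filter on low counts (0.0126) and after a correction for transcript length (0.0268). With siCtrl replicate 2 or 5 or siDDX41 replicate 1 left out, 2 of the 6 genes were called higher. PYM1 shares exon bases with DGKA on the opposite strand, whose counts were 143% of its own.

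SMG1 belongs to a family of very large kinases and the related TRRAP, which lacks kinase activity. Of its 5 relatives, 2 were higher and 1 lower, beside 30.3% and 32.1% of all tested genes (median log2 fold change 0.142). ATR, a kinase of the replication stress response, was at 37.9, 40.4, 46.6, 41.6 and 38.5 CPM in siCtrl replicates 1 to 5 and at 59.8, 59.5, 63.4, 59.1 and 59.9 CPM in siDDX41 replicates 1 to 5, without overlap. Its log2 fold change was 0.56 (SE 0.044, edgeR adjusted p = 6.46e-12). The growth regulator gene MTOR fell by 0.18 (SE 0.030, edgeR adjusted p = 4.32e-06), and by 0.12 with a GC correction. PRKDC was called higher (0.33, SE 0.084, edgeR adjusted p = 0.00595), and the call was lost without any of siCtrl replicates 1 (adjusted p = 0.015), 2 (0.0152) or 5 (0.0161) or of siDDX41 replicates 1 (0.0141), 2 (0.0144), 3 (0.0132) or 5 (0.013), which left 1 of the 5 genes called higher. The PRKDC call was also lost without a filter on low counts (adjusted p = 0.0129). Without siCtrl replicate 3, 4 were called higher.

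Chaperones that assemble proteins of this family include the TTT complex and the R2TP complex. Of 7 such genes, 4 were higher and 2 lower, beside 30.3% and 32.1% of all tested genes (median log2 fold change 0.190). The R2TP genes PIH1D1 (log2 fold change 0.58, SE 0.033, edgeR adjusted p = 1.58e-15), RUVBL2 (0.55), RUVBL1 (0.25) and RPAP3 (0.19, and 0.11 with a GC correction) were higher. The TTT genes TTI1 (-0.28, SE 0.035, edgeR adjusted p = 2.16e-08) and TTI2 (-0.22) were lower, and TELO2 was not called (-0.0022). RUVBL1 shares exon bases with SEC61A1, TTI2 with MAK16 and PIH1D1 with ALDH16A1, all on the opposite strand, with 551%, 230% and 18.8% of their counts. The strand setting of the counting was not stated, so these genes are uncertain.

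Of 10 genes of decapping, deadenylation and 5′ to 3′ decay, 5 were higher and 1 was lower (median log2 fold change 0.113). The shares over all tested genes were 30.3% and 32.1%. The decapping enzyme gene DCP2 rose from 128.1 ± 4.73 to 168.6 ± 6.04 CPM (SD, n = 5; log2 fold change 0.40, SE 0.031, edgeR adjusted p = 2.23e-12). Its activator DCP1A fell from 45.7 ± 1.66 to 29.2 ± 0.958 CPM (log2 fold change -0.64, SE 0.040, edgeR adjusted p = 1.03e-14). The scaffold gene EDC4 (0.23), the helicase gene DDX6 (0.12) and CNOT1 (0.11), which codes for the scaffold of the deadenylase complex, were higher. EDC3 was called higher too (0.12, edgeR adjusted p = 0.00653). It lost its call without siCtrl replicate 2 (0.085, adjusted p = 0.0366) or 5 (0.0104) or siDDX41 replicate 3 (0.0117) or 5 (0.0162). With a GC correction 3 of the 10 genes were called lower, and DDX6 lost its call (0.061, adjusted p = 0.0309). DCP2 shares 0.792% of its exon bases with MCC on the opposite strand.

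**Figure D4:**
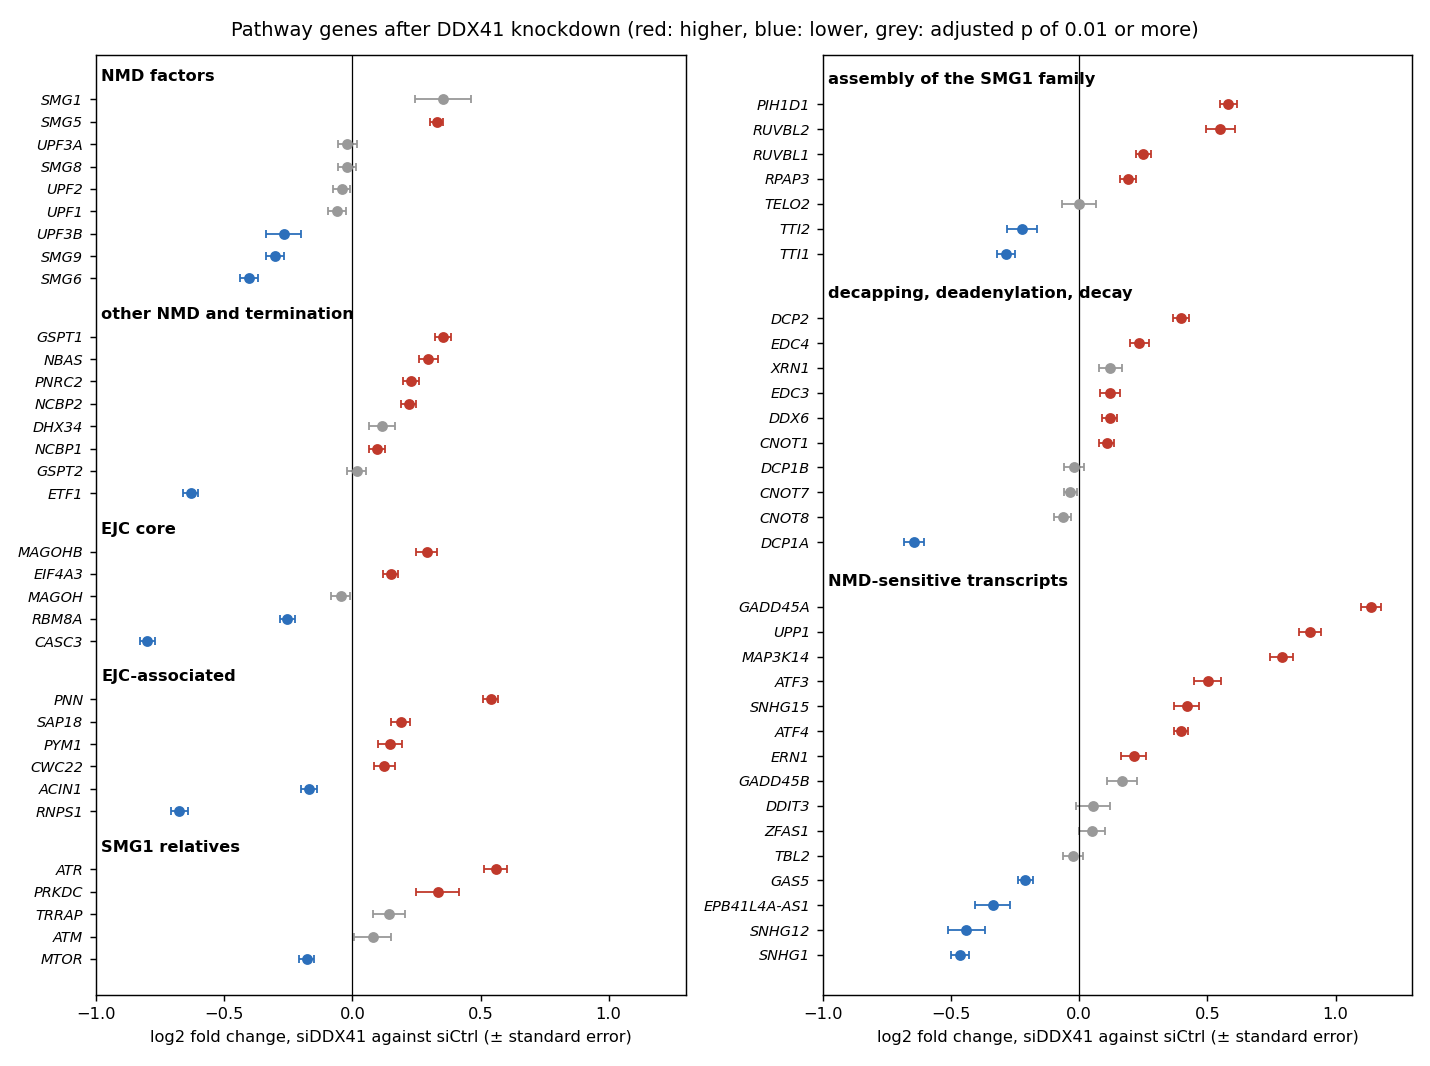
Log2 fold change of each tested gene, siDDX41 against siCtrl, with its standard error, for the NMD factors and the other lists of the pathway (red for higher, blue for lower, grey for an adjusted p of 0.01 or more). Within most lists some genes lie on each side of 0, from -0.80 for CASC3 to 1.14 for GADD45A.

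The last list held 15 transcripts described as sensitive to NMD, of which 7 were higher and 4 lower (median log2 fold change 0.166). Over all tested genes these shares were 30.3% and 32.1%. GADD45A, a stress gene, was at 35.2, 34.4, 31.4, 34.2 and 33.5 CPM in siCtrl replicates 1 to 5 and at 77.7, 69.8, 77.0, 74.3 and 72.2 CPM in siDDX41 replicates 1 to 5. The groups were far apart (log2 fold change 1.14, SE 0.039, edgeR adjusted p = 9.54e-21). UPP1, a uridine phosphorylase gene (0.90, edgeR adjusted p = 3.9e-16), MAP3K14, a kinase gene of NF-kB signalling (0.79, edgeR adjusted p = 1.29e-15), and ATF4, a transcription factor gene of the integrated stress response (0.40, edgeR adjusted p = 4.62e-14), were also higher. All 4 transcripts called lower were long noncoding RNAs, which are translated only over short frames. Of the other long noncoding RNAs of the list, named after their values were seen, SNHG15 was higher (0.42) and ZFAS1 was not called (0.049).

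Of these, SNHG1, the host of several small nucleolar RNAs, was at 101.8, 105.4, 102.6, 100.8 and 103.4 CPM in siCtrl replicates 1 to 5 and at 72.2, 80.5, 77.2, 72.4 and 70.2 CPM in siDDX41 replicates 1 to 5. The groups did not overlap, and the log2 fold change was -0.46 (SE 0.034, edgeR adjusted p = 5.98e-13). SNHG12 (-0.44, edgeR adjusted p = 4.1e-06), EPB41L4A-AS1 (-0.34, edgeR adjusted p = 8e-05) and GAS5 (-0.21, edgeR adjusted p = 1.6e-07) were lower too. EPB41L4A-AS1 shares 51.3% of its exon bases with EPB41L4A on the opposite strand. The list thus held transcripts on both sides, and gene counts give levels and not the rate of decay.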

How the data were processed

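The authors sequenced stranded polyA libraries as single reads of 84 bases, aligned them with STAR 2.7 (hg38, GENCODE 25) and assigned them to genes with featureCounts 1.6. What they deposited are raw counts, a table for each library. The settings for strand and for reads mapping to several places are not given in the sources used here. Groups came from the sample labels.

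The groups were compared by the quasi-likelihood test of edgeR 4.0.16 under R 4.3.3 (low counts removed by filterByExpr, TMM scaling, robust fit, Benjamini-Hochberg adjustment over 16143 genes, threshold 0.01 as in the study). Standard errors came from the F statistic, and 95% intervals are 1.96 standard errors wide on each side. Partner ratios were tested in Python 3.11.15 with scipy 1.17.1 by exact two-sided permutation and were read at an adjusted p under 0.05. Names, positions and lengths came from GENCODE 44 on GRCh38. Dropped were 45 duplicate identifiers of the Y pseudoautosomal region, all without counts. Counts of replicates differed by more than sampling noise (chi-square per degree of freedom 1.84 to 6.18 over 20 pairs), and the biological coefficient of variation was 3.65%. The edgeR test was checked on simulated data.

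Genes named are the 9 members, DDX41, the 5 core EJC genes, up to 4 called genes per direction of each other list, listed genes under 10 counts in every library, and the 3 nearest to UPF1 and SMG1. TELO2, ATM, TRRAP, GSPT2, NCBP1, EDC3, SNHG15 and ZFAS1, genes of library checks and overlapping genes were named after their values were seen. A gene of the lists and its ratio are not reported here. Members and lists were chosen with earlier results of these data known. Alternatives used DESeq2 1.42.0, limma 3.58.1, other scaling, filters, thresholds, a GC correction, a replicate block and fewer libraries.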

Additional observations from a re-analysis of the deposited data

Results flagged for a closer look

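In 7 of 154 sets of 5 libraries, 1 library lay far from the others of its group in CPM, where chance gives about 1 in 20. For relatives of SMG1 these were ATM in siCtrl replicate 3 (85.4 CPM, others 65.7 to 71.4), PRKDC in siDDX41 replicate 4 (516.2 CPM, others 582.1 to 605.0), TRRAP in siDDX41 replicate 4 (221.2 CPM, others 248.1 to 258.6) and ATR in siDDX41 replicate 3 (63.4 CPM, others 59.1 to 59.9). The libraries of the ATM, PRKDC and TRRAP values are the highest of siCtrl and the lowest of siDDX41 for transcripts of 10 kb or more. For the others these were the decapping factor gene EDC3 in siCtrl replicate 2 (43.4 CPM, others 48.6 to 49.95), the osteoblast transcription factor gene RUNX2 in siDDX41 replicate 2 (26.1 CPM, others 24.1 to 24.4) and the bone matrix gene SPP1 in siCtrl replicate 1 (21.0 CPM, others 18.2 to 18.9). None of the 9 NMD genes had such a library.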

How the results depend on the processing

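SMG5, SMG6 and SMG9 kept their direction and their call in all 20 alternatives run for each, with log2 fold changes of 0.32 to 0.43, -0.41 to -0.31 and -0.34 to -0.21. No called result changed sign. UPF1, UPF2, UPF3A and SMG8, which were not called, reached 0.030, 0.010, 0.0086 and 0.031 in the alternative with the highest value. Their lowest values were -0.111, -0.0836, -0.0342 and -0.0356. The SMG1 change passed the threshold with DESeq2 (0.36), limma-voom (0.37), an adjusted p under 0.05 (0.35), a transcript length correction (0.25) and without siCtrl replicates 3 and 4 (0.53), each of which gave 2 NMD genes called higher. Leaving out single libraries gave SMG1 changes of 0.30 to 0.42 and 1 to 2 NMD genes called higher. The length correction and the fit without siCtrl replicates 3 and 4 were chosen after seeing the data, and the latter leaves out the siCtrl libraries with the most SMG1, which by construction widens its difference. In that fit UPF1 was -0.11 (called), UPF3B -0.21 (not called), the log2 ratio of UPF3B to UPF3A differed by -0.22, those of SMG8 and SMG9 to SMG1 by -0.55 and -0.86 (3 against 5 libraries cannot give a p below 0.0357, so these are not read as tests), and 4 relatives of SMG1 were called higher.

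Without single libraries, EJC-associated genes called higher numbered 2 to 4, SMG1 relatives 1 to 4, and the log2 ratio of SMG8 to SMG1 differed by -0.46 to -0.33. A GC correction gave 3 decay genes called lower. The replicate block gave 1 relative of SMG1 called higher, and together with the GC correction 1 relative higher, 1 EJC-associated gene lower and 3 decay genes lower (ACIN1 was then -0.10, adjusted p = 0.012). With the block alone the adjusted p was 0.0285 for PRKDC and 0.0115 for PYM1, CWC22 had 0.0891 and DDX6 0.0516 with block and GC correction, and PRKDC 0.0218. The labels do not say whether the numbers pair the samples. Correlations of same-numbered libraries, taken on deviations from the group means, were -0.0524 to 0.0446, and 1 of 10 libraries correlated best with its own number. These values showed no shared deviation, but they cannot tell whether such libraries were prepared together. The cause of the changed calls was not tested. Of values of other called genes, 912 kept their call and 48 lost it.

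Depth limits genes with few counts, among them UPF3B, SNHG12, EPB41L4A-AS1 and the pseudogenes. CPM are shares of polyadenylated RNA in 1 cell line, measured 48 h after 1 siRNA pool, and give neither protein, transcript isoforms, decay rates nor NMD activity.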
